A study of Homo sapiens with 4 samples.

Results

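Respiratory complex I, the NADH:ubiquinone oxidoreductase of the inner mitochondrial membrane, was followed at the level of its messages. Members were the genes named as NDUFA, NDUFB, NDUFC, NDUFS, NDUFV or NDUFAB subunits, without NDUFA4, together with MT-ND1 to MT-ND6 and MT-ND4L. The rule used gene symbols alone, and 44 of the 20263 genes of the table met it. Of these, 37 lie in the nuclear genome, on 18 chromosomes, and 7 lie in the mitochondrial genome. All 44 had enough counts to be tested.

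The messages came from MDA-MB-231, an established human breast cancer cell line. Cells in DMEM with fetal bovine serum received either DMSO, the solvent control, or Rib_CA, which the series title describes as a derivative of ribociclib, an inhibitor of cyclin-dependent kinases 4 and 6. Exposure lasted 24 h, there were 2 libraries per group, and neither the dose nor any other genotype or agent is given in the labels. A single cell line limits what the comparison stands for.

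Complex I takes electrons from NADH, passes them along iron-sulfur clusters to ubiquinone and pumps protons across the membrane. It is L-shaped: a matrix arm carries the redox centres and a membrane arm pumps the protons. The mitochondrial genome encodes the core subunits of the membrane arm, and the nuclear genome encodes the core of the matrix arm and all accessory subunits. Messages of both genomes are therefore needed for 1 enzyme, and in cancer cells the complex is known chiefly for regenerating NAD+ and driving ATP synthesis.

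The 2 genomes carry these genes in different ways, which the sequences show. In the mitochondrial genome the 7 genes lie between bases 3307 and 14673 of chrM, and the reading frame of MT-ND4 begins inside that of MT-ND4L. The end of MT-ND4L (chrM:10737-10766) and the start of MT-ND4 (chrM:10760-10789) are printed here from GENCODE release 29 on GRCh38, + strand, with the 7 shared bases in capitals.
MT-ND4L end: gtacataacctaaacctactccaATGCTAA
MT-ND4 start: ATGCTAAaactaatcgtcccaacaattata

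The nuclear genes are scattered, each with a promoter of its own. RefSeq promoters (GRCh38.p14, 250 bases before to 50 after the start site) were matched by symbol for 32 of the 37 nuclear members. They were searched on both strands for letters bound by regulators of respiratory genes: GCGCA and GCGC with any 1 base between them for NRF1, CCGGAAG for ETS factors such as GABPA, and AAGATGGCG for YY1. The NRF1 letters stood in 6 of the 32 promoters (18.8%) against 6.28% of all 27305 promoters. The ETS letters stood in 5 (15.6%) against 10.7%, and the YY1 letters in 5 (15.6%) against 1.85%. The 6 genes with NRF1 letters were NDUFA3, NDUFA8, NDUFA9, NDUFA11, NDUFA12 and NDUFB4, and their log2 fold changes, given further on by role, ran from -0.26 to 1.15. A match is a string of letters and not a measured binding site.

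Windows of 30 bases around such matches are shown, with the matching letters in capitals. The YY1 letters were found in these 5 genes, in each case on the coding strand and after the annotated start site.
NDUFA6, chr22:42090728-42090757, - strand: atgctttggcAAGATGGCGgggagcggcgt
NDUFA7, chr19:8321342-8321371, - strand: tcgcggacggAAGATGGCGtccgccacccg
NDUFA9, chr12:4649114-4649143, + strand: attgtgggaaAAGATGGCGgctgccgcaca
NDUFS4, chr5:53560650-53560679, + strand: tgcctgcagcAAGATGGCGgcggtgtcaat
NDUFS7, chr19:1383914-1383943, + strand: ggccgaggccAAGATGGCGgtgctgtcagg

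NDUFA8 and NDUFB4 are shown because they had the highest log2 fold changes of these 6 genes, and NDUFA1 because it is the nuclear subunit with the highest log2 fold change. In NDUFA8 2 NRF1 matches overlap, NDUFB4 holds 3 apart from each other, and NDUFA1 holds 1 ETS match. Of the genes not shown, NDUFA3 holds 2 NRF1 matches with a log2 fold change of 0.52. NDUFA11, NDUFA9 and NDUFA12 hold 1 each, with 0.40, -0.14 and -0.26. A link between letters and fold change was not tested.
NDUFA8, chr9:122159761-122159790, - strand: gccggatGCGCATGCGCAGGCGCcgtgtgg
NDUFB4 match 1, chr3:120596167-120596196, + strand: agagcacttcGCGCATGCGCatatcaccga
NDUFB4 match 2, chr3:120596263-120596292, + strand: ctctgctaacGCGCAGGCGCacttcctgaa
NDUFB4 match 3, chr3:120596318-120596347, + strand: cctcagaatcGCGCAGGCGCaattgtgccc
NDUFA1, chrX:119871774-119871803, + strand: ttccgtcgcttCTTCCGGagccgtacgtgg

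The 4 libraries held 34774542 to 38865103 counts. VIM, AXL, EGFR, CD44 and CAV1, expressed by this mesenchymal-like line, lay between 276.3 and 4302 CPM, counts per 1000000 counts of a library, throughout. ESR1, PGR and CDH1 lay at or below 1.54 CPM, and CD3E of blood cells was at 0 counts. PTPRC of blood cells was detected at 0.6326 and 0.3443 CPM in DMSO 1 and 2 and at 0.1544 and 0.05295 CPM in Rib_CA 1 and 2, and PECAM1 of endothelium at 0.5918 to 1.179 CPM. Their part in the results was not tested. EPCAM lay between 8.29 and 13.85 CPM and ERBB2 between 56.95 and 87.84 CPM. The libraries of a group differed by far more than counting noise, also in mitochondrial messages. The 13 mitochondrially encoded genes took 8.679% of counts in DMSO 1 and 21.69% in DMSO 2, against 5.785% in Rib_CA 1 and 3.134% in Rib_CA 2. In such bulk samples fewer cells with a message and less of it per cell cannot be told apart.

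The 2 genomes lay on opposite sides of 0. The nuclear subunits had a median log2 fold change of 0.614, Rib_CA against DMSO (1.53-fold higher), and 32 of 37 were positive (86.5%, against 51.9% of the 13667 genes tested). The mitochondrially encoded subunits had a median of -1.77 (3.4-fold lower), and 7 of 7 were negative, against 48.1% of genes tested. These 7 rose or fell together between the libraries of a group, as given further on, so they are not 7 separate observations. The median over all genes tested was 0.03. The nuclear range ran from -0.44 to 1.35 and the mitochondrial range from -2.54 to -1.11, so that the highest mitochondrial value lay below the lowest nuclear one.

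Few single members passed the test, which was edgeR's quasi-likelihood test with Benjamini-Hochberg adjustment over all genes at a threshold of 0.05. Of the nuclear subunits 2 rose, NDUFA1 and NDUFA2 (5.41%, against 2.01% of genes tested), and 0 fell, against 5.11%. Unadjusted p was under 0.05 for 13 nuclear subunits, all higher, a share of 35.1% against 13.7% of genes tested. DESeq2 called 9 of 37 nuclear subunits higher, against 7.58% of all its tested genes. limma-voom called 1, NDUFA1, against 1.64% of all genes tested. Of the mitochondrial subunits edgeR called 0, with unadjusted p under 0.05 for 5 of 7, against 14.7% of genes tested. DESeq2 called 6 of 7 lower, against 11.2% of all its tested genes, and limma-voom 0, against 4.81% of all genes tested.

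Both Rib_CA libraries lay above both DMSO libraries for 24 nuclear subunits (64.9%, against 30.4% of genes tested). Both lay below for 2, NDUFA5 and NDUFA12 (5.41%, against 28.4%), and the groups overlapped for 11. Of the mitochondrial subunits 6 of 7 lay below in both Rib_CA libraries (85.7%, against 28.4%), and MT-ND6 overlapped. With 2 libraries against 2, no two-sided permutation test of a single value can give an exact p under 0.333.

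**Figure D1:**
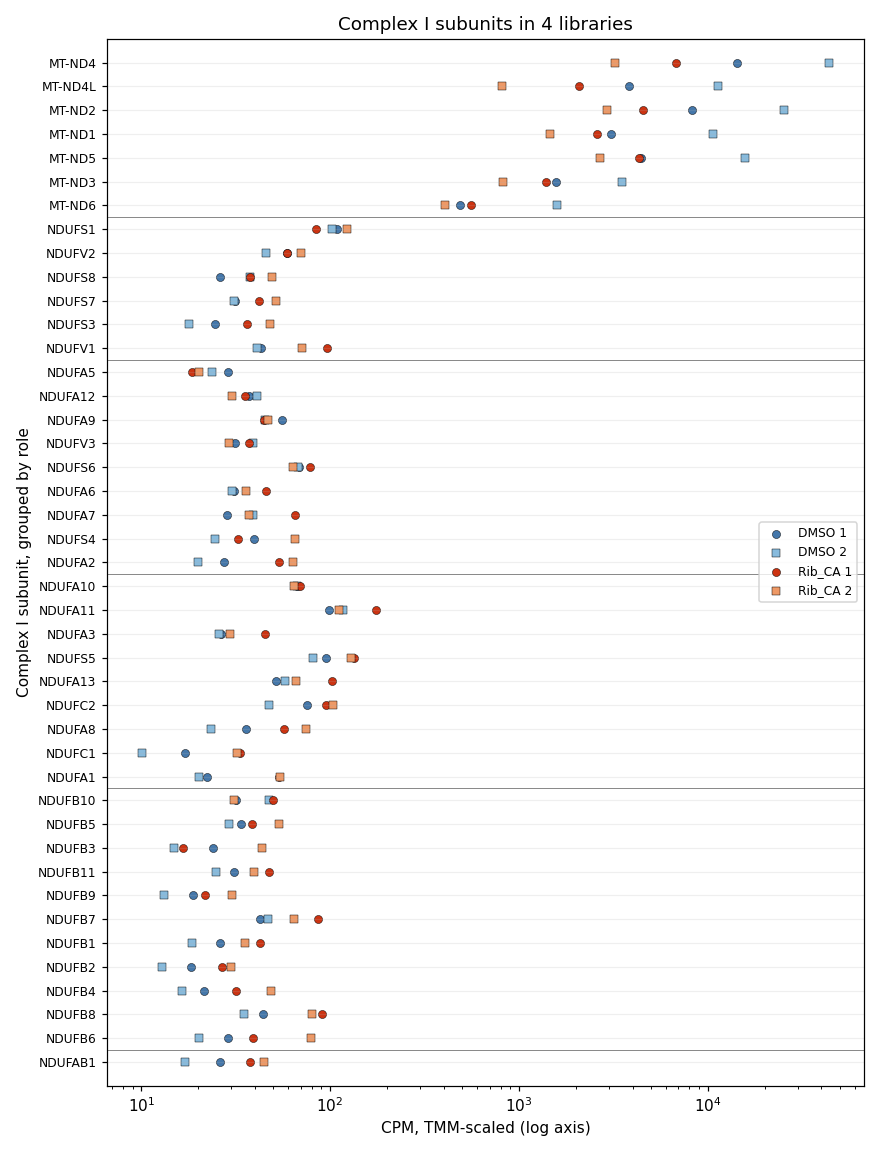
CPM after TMM scaling on a log axis for 43 of the 44 subunits, 1 row per gene grouped by role, with 1 point per library (circles for replicate 1, squares for replicate 2, blue for DMSO, red and orange for Rib_CA). The 7 mitochondrially encoded subunits at the top lie far to the right of the nuclear ones, and DMSO 2 is the highest library for each of them.

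Counts summed over the members of each genome separated the groups as well. The 7 mitochondrial subunit genes held 1250478 counts in DMSO 1, 3687078 in DMSO 2, 874968 in Rib_CA 1 and 531179 in Rib_CA 2. The 37 nuclear genes held 54168, 47133, 84547 and 93384 counts in the same libraries. The mitochondrial sum was lower in both Rib_CA libraries and the nuclear sum higher.

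Per nuclear count there were 23.1 mitochondrial counts in DMSO 1, 78.2 in DMSO 2, 10.3 in Rib_CA 1 and 5.69 in Rib_CA 2. This was 50.7 ± 39 (SD, n = 2) in DMSO and 8.02 ± 3.3 (SD, n = 2) in Rib_CA. The groups did not overlap, yet DMSO 2 stood 3.39-fold above DMSO 1, a wider gap than the 2.23-fold step from DMSO 1 down to Rib_CA 1. The mitochondrial share of complex I counts was 95.85% (Wilson 95% interval 95.81 to 95.88%) in DMSO 1 and 98.74% (98.73 to 98.75%) in DMSO 2. It was 91.19% (91.13 to 91.25%) in Rib_CA 1 and 85.05% (84.96 to 85.14%) in Rib_CA 2. These intervals cover counting error only.

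**Figure D2:**
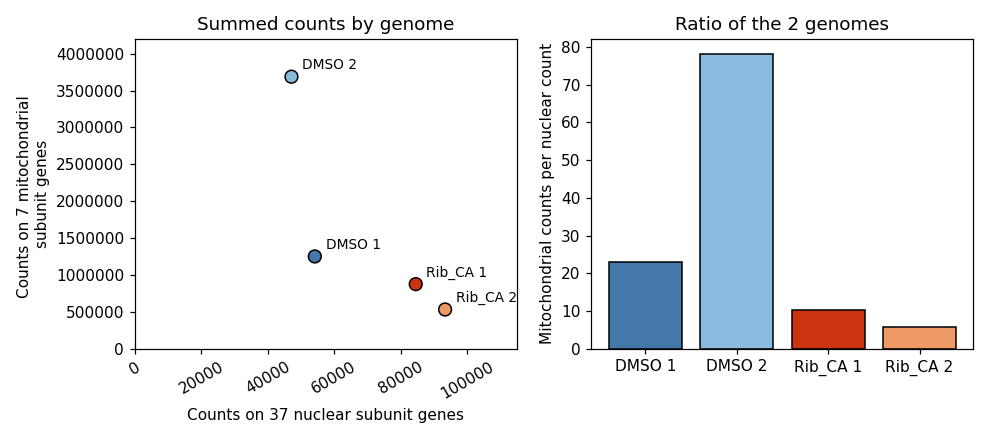
Left, counts summed over the 37 nuclear subunit genes (x) against counts summed over the 7 mitochondrial subunit genes (y), 1 point per library. Right, the ratio of both sums as 1 bar per library from 0: DMSO 1 and DMSO 2 reach 23.1 and 78.2, Rib_CA 1 and Rib_CA 2 reach 10.3 and 5.69.

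The nuclear difference was also present with mitochondrial counts left out of the denominator. Nuclear subunits made up 0.1706% (0.1691 to 0.172%) of counts outside the mitochondrial genome in DMSO 1 and 0.1594% (0.158 to 0.1609%) in DMSO 2. In Rib_CA they made up 0.2309% (0.2293 to 0.2325%) and 0.2552% (0.2536 to 0.2569%). Both Rib_CA libraries lay above both DMSO libraries, and the gap between groups was wider than that within either group.

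Within groups the 2 genomes also behaved differently. All 7 mitochondrial subunits were higher in DMSO 2 than in DMSO 1, by 2.23 to 3.52-fold with a median of 3.06. Of the nuclear subunits 9 of 37 were higher in DMSO 2, with a median ratio of 0.86. Between Rib_CA 2 and Rib_CA 1 the median ratio was 0.59 for the mitochondrial subunits, none of which was higher in Rib_CA 2, and 1.05 for the nuclear subunits, of which 20 were higher.

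The mitochondrial result rests in size on DMSO 2. Without that library the median of the 7 subunits was -0.61 rather than -1.77, with a range from -1.52 for MT-ND4 to -0.02 for MT-ND6. All 7 remained negative. Only in this setting, among those tried, did the ranges of the 2 genomes overlap.

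The mitochondrially encoded subunits form the core of the membrane arm. MT-ND2, MT-ND4 and MT-ND5 are the antiporter-like subunits that carry the proton channels. MT-ND4 (chrM:10760-12137) stood at 14360 CPM in DMSO 1, 43960 in DMSO 2, 6827 in Rib_CA 1 and 3220 in Rib_CA 2. Every Rib_CA value lay below every DMSO value, and the highest and lowest libraries were DMSO 2 and Rib_CA 2. The fitted log2 fold change was -2.54 ± 0.70 (SE), 5.8-fold lower, with an adjusted p of 0.0769 in edgeR.

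MT-ND2 (chrM:4470-5511) stood at 8242, 25210, 4563 and 2937 CPM in the same order of libraries, a log2 fold change of -2.16 ± 0.63 with an edgeR adjusted p of 0.0848. Its groups did not overlap. MT-ND5 (chrM:12337-14148), the distal antiporter-like subunit, stood at 4460, 15690, 4313 and 2688 CPM, a log2 fold change of -1.53 ± 0.64 with an edgeR adjusted p of 0.178. Its groups were apart by the narrow step from 4460 to 4313 CPM.

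MT-ND4L (chrM:10470-10766), a small subunit between the antiporter-like ones and the heel of the complex, stood at 3852, 11280, 2080 and 809.6 CPM. Its log2 fold change was -2.39 ± 0.68 with an edgeR adjusted p of 0.0811. MT-ND4L and MT-ND4, the pair whose frames share the 7 bases printed above, had the lowest log2 fold changes of the 44 members. MT-ND4 counts per MT-ND4L count stayed between 3.28 and 3.98 in all libraries, so the pair moved together and is not 2 separate observations. The shared stretch is 2.36% of the length of MT-ND4L and 0.508% of that of MT-ND4.

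MT-ND1 (chrM:3307-4262), which forms part of the ubiquinone chamber, stood at 3083, 10710, 2597 and 1459 CPM, a log2 fold change of -1.77 ± 0.64 with an edgeR adjusted p of 0.135. MT-ND3 (chrM:10059-10404), whose loop reaches the junction of both arms, stood at 1577, 3522, 1396 and 823.2 CPM, a log2 fold change of -1.20 ± 0.48 with an edgeR adjusted p of 0.162. In both genes all Rib_CA values lay below all DMSO values.

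MT-ND6 (chrM:14149-14673) is the one member of the 7 read from the - strand. It stood at 487.8, 1590, 556.5 and 405.0 CPM, a log2 fold change of -1.11 ± 0.54 with an edgeR adjusted p of 0.235. DMSO 1 lay between the Rib_CA libraries, so the groups overlapped. Whether counting used strand is not given in the sources used here, so reads from transcripts of the opposite strand cannot be told apart from MT-ND6.

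The 7 genes did not hold constant proportions. As a group they took 41.43% and 45.02% of all mitochondrially encoded counts in DMSO 1 and 2, and 38.92% and 44.86% in Rib_CA 1 and 2, so the groups overlapped. Within that pool MT-ND4 made up 16.5% and 17.68% in DMSO and 11.9% and 11.7% in Rib_CA, or 17.1 ± 0.834% against 11.8 ± 0.141% (SD, n = 2 each). MT-ND4L made up 4.426% and 4.535% against 3.625% and 2.943%. These were the only members of the 7 with a lower share in both Rib_CA libraries.

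MT-ND5, MT-ND6, MT-ND1 and MT-ND3 took larger shares of the pool in both Rib_CA libraries. MT-ND5 made up 5.124% and 6.309% in DMSO against 7.517% and 9.771% in Rib_CA. MT-ND6 made up 0.5605% and 0.6393% against 0.9697% and 1.472%. MT-ND2 overlapped, at 9.47% and 10.14% against 7.952% and 10.68%.

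Ratios between members do not depend on library scaling. MT-ND4 and MT-ND6 had the lowest and the highest log2 fold change of the mitochondrial subunits. A lower ratio of the 2 in Rib_CA therefore follows from the choice of pair and is no separate support. There were 29.4 MT-ND4 counts per MT-ND6 count in DMSO 1, 27.6 in DMSO 2, 12.3 in Rib_CA 1 and 7.95 in Rib_CA 2. This was 28.5 ± 1.27 (SD, n = 2) against 10.1 ± 3.05 (SD, n = 2), so the DMSO libraries, which differed widely in mitochondrial content, were close in this ratio. MT-ND4 counts per MT-ND5 count were 3.22, 2.8, 1.58 and 1.2 in the same order. MT-ND4 per MT-ND4L gave 3.73, 3.9, 3.28 and 3.98, and there the groups overlapped.

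**Figure D3:**
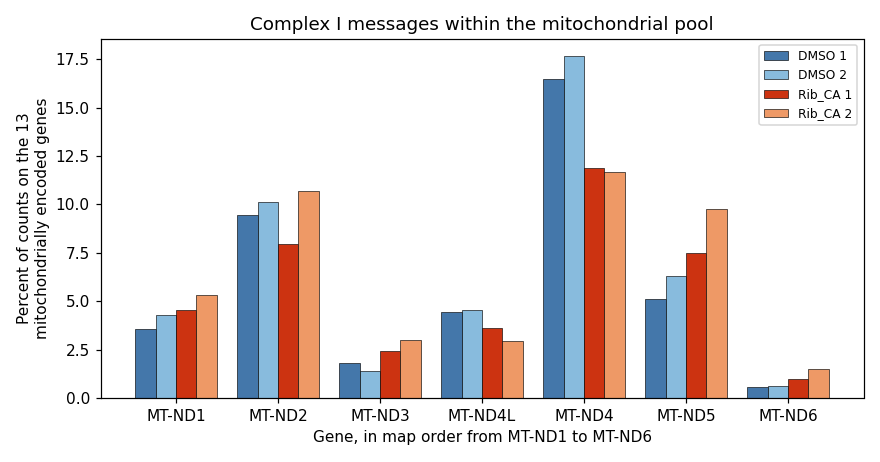
Share of each complex I message in the counts on the 13 mitochondrially encoded genes (percent, bars from 0), with 1 bar per library for each of the 7 genes in map order. MT-ND4 is shorter in both Rib_CA libraries (11.9 and 11.7%) than in both DMSO libraries (16.5 and 17.68%), while MT-ND5 is taller.

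The nuclear subunits were then taken by role, starting with the core of the matrix arm, which holds the flavin and the iron-sulfur clusters. Counts of groups that did not overlap stand, in each role, against 30.4% of genes tested for higher and 28.4% for lower. Counts of unadjusted p under 0.05, all with higher values in Rib_CA, stand against 13.7% of genes tested for higher. Of these 7 subunits 6 had positive log2 fold changes with a median of 0.45, 5 lay higher in both Rib_CA libraries, and edgeR called 0, with unadjusted p under 0.05 for 2. NDUFV1, which binds NADH and FMN, stood at 43.31 CPM in DMSO 1, 40.90 in DMSO 2, 96.05 in Rib_CA 1 and 71.07 in Rib_CA 2. The Rib_CA libraries were both higher, with a log2 fold change of 0.99 ± 0.28 and an edgeR adjusted p of 0.0787. NDUFS3, part of the scaffold near the quinone site, stood at 24.48, 18.01, 36.47 and 47.79 CPM, a log2 fold change of 0.99 ± 0.31 with an edgeR adjusted p of 0.0993.

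NDUFS1, the largest core subunit and a carrier of iron-sulfur clusters, had the lowest log2 fold change of these 7 core subunits. It stood at 108.4 and 102.6 CPM in DMSO and 84.49 and 122.7 CPM in Rib_CA, which overlapped, with a log2 fold change of -0.03 ± 0.28. NDUFS7 and NDUFS8, which carry the last clusters before the quinone site, had log2 fold changes of 0.58 and 0.45. NDUFV2, the small cluster subunit beside NDUFV1, had 0.29, with its groups overlapping.

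Of the 9 accessory subunits of the matrix arm, 5 were positive and 4 negative, with a median of 0.06. Groups were apart for 4 of them, higher in Rib_CA for 2 and lower for 2, which is not above the shares of all genes tested (30.4% and 28.4%). NDUFA2, a small subunit with a thioredoxin-like fold (chr5:140638740-140647785, - strand), stood at 27.54 CPM in DMSO 1, 19.89 in DMSO 2, 53.83 in Rib_CA 1 and 63.98 in Rib_CA 2. It rose 2.48-fold, a log2 fold change of 1.31 ± 0.30 with an edgeR adjusted p of 0.0495. Exons of NDUFA2 share 8.33% of their bases with TMCO6 and 4.7% with IK, both on the opposite strand, and these had log2 fold changes of 0.31 and -1.76.

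The call for NDUFA2 is close to the threshold. With total counts alone the edgeR adjusted p was 0.0576. The call was also lost without either DMSO library, where 1 control library was left and edgeR called fewer genes of the whole table. limma-voom gave an adjusted p of 0.0505 and DESeq2 one of 0.00206. The log2 fold change stayed between 1.10 and 1.56 when any 1 library was left out. With a correction for GC content the edgeR adjusted p was 0.0945, and with one for GC content and length it was 0.171 with a log2 fold change of 0.86. Under either correction edgeR called 0 genes of the whole table.

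NDUFA5, a subunit on the flank of the matrix arm, lay on the other side, at 28.81 and 23.68 CPM in DMSO and 18.53 and 20.26 CPM in Rib_CA. The groups did not overlap, and its log2 fold change of -0.44 ± 0.28 was the lowest of the nuclear subunits, with an edgeR adjusted p of 0.355. NDUFA12 stood at 37.40 and 41.20 CPM against 35.53 and 30.18 CPM, a log2 fold change of -0.26. NDUFA9, at the junction of both arms, and NDUFV3 had values of -0.14 and -0.09, and NDUFS6 had 0.06. NDUFS4, needed to complete the arm, ranged from 32.47 to 65.40 CPM within Rib_CA alone, with a log2 fold change of 0.61 ± 0.42.

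In the proximal membrane arm all 9 accessory subunits had positive log2 fold changes, with a median of 0.63, and 7 lay higher in both Rib_CA libraries. NDUFA1, a short single-pass membrane subunit (chrX:119871487-119876662, + strand), stood at 22.29 CPM in DMSO 1, 20.13 in DMSO 2, 53.91 in Rib_CA 1 and 54.44 in Rib_CA 2. It rose 2.55-fold, a log2 fold change of 1.35 ± 0.26 with an edgeR adjusted p of 0.0365, and the values were close within each group. Its exons share 44.5% of their bases with RNF113A on the opposite strand, which stood at 14.56, 14.91, 19.6 and 23.09 CPM with a log2 fold change of 0.53 ± 0.28 and an edgeR adjusted p of 0.265.

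Leaving out 1 library at a time kept the log2 fold change of NDUFA1 between 1.28 and 1.42. The call was lost without either DMSO library, where 1 control library was left and edgeR called fewer genes of the whole table. limma-voom and DESeq2 gave adjusted p of 0.0378 and 0.000503. With corrections for GC content, and for GC content and length, the adjusted p was 0.0752 and 0.125, and in the latter the log2 fold change was 0.87. Under either correction edgeR called 0 genes of the whole table.

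NDUFC1, a short membrane subunit (chr4:139266880-139302551), stood at 16.99, 10.05, 33.28 and 32.29 CPM, a log2 fold change of 1.28 ± 0.34 with an edgeR adjusted p of 0.0715. NDUFA8, which faces the intermembrane space (chr9:122144058-122159819), stood at 35.99, 23.35, 56.82 and 74.86 CPM, a log2 fold change of 1.15 ± 0.33 with an edgeR adjusted p of 0.0804. Both were higher in each Rib_CA library than in each DMSO library. NDUFA8 is the gene with overlapping NRF1 letters at its start site.

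NDUFA10, which has a kinase-like fold, was the lowest of this group, at 66.44 and 66.98 CPM in DMSO and 69.73 and 64.43 CPM in Rib_CA. These values overlapped within a narrow span, with a log2 fold change of 0.01 ± 0.25. NDUFA11, NDUFA3 and NDUFS5 had log2 fold changes of 0.40, 0.52 and 0.58, and NDUFA13, also known as GRIM-19, and NDUFC2 had 0.63 and 0.69.

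In the distal membrane arm, NDUFB1 to NDUFB11, all 11 subunits had positive log2 fold changes, with a median of 0.75. Of these, 9 lay higher in both Rib_CA libraries. edgeR called 0, with unadjusted p under 0.05 for 6, all higher, against 13.7% of genes tested for higher. NDUFB8, whose protein is often blotted as a readout of assembled complex I (chr10:100523740-100530000), stood at 44.27 CPM in DMSO 1, 34.80 in DMSO 2, 90.94 in Rib_CA 1 and 80.27 in Rib_CA 2. The groups were well apart, with a log2 fold change of 1.11 ± 0.27 and an edgeR adjusted p of 0.0578. Its exons share 33.8% of their bases with a same-strand gene entry without a symbol, so reads there could be split between the entries.

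NDUFB6 stood at 28.72, 20.13, 39.28 and 78.95 CPM, the highest log2 fold change of this arm at 1.27 ± 0.40, with an edgeR adjusted p of 0.103. Its Rib_CA libraries differed from each other by more than Rib_CA 1 did from DMSO 1. NDUFB4, with the 3 NRF1 matches shown above, stood at 21.43, 16.46, 31.70 and 48.53 CPM, a log2 fold change of 1.08 ± 0.33 with an edgeR adjusted p of 0.0952. NDUFB10 was the lowest at 31.69 and 47.73 CPM in DMSO and 49.85 and 30.90 CPM in Rib_CA, which overlapped, with a log2 fold change of 0.02 ± 0.36. NDUFB3 also overlapped, and its value ran from -0.22 to 1.14 depending on which library was left out.

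NDUFAB1, the mitochondrial acyl carrier protein, sits at more than 1 place in the complex and was kept apart. It stood at 26.13 and 17.09 CPM in DMSO and 37.70 and 44.54 CPM in Rib_CA, which did not overlap. Its log2 fold change was 0.93 ± 0.32 with an edgeR adjusted p of 0.121.

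**Figure D4:**
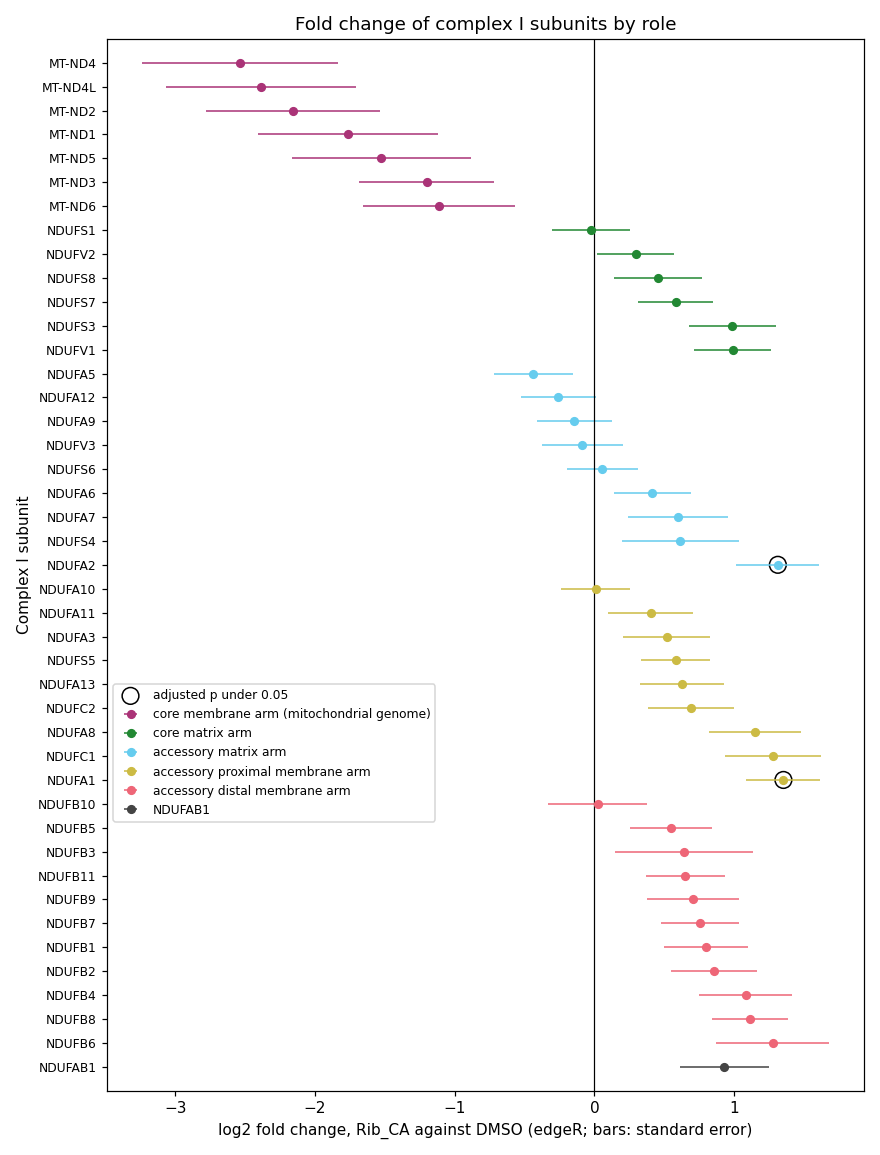
Log2 fold change of Rib_CA against DMSO (x) with its standard error as a bar for 43 of the 44 subunits, coloured by role, with rings around the members with adjusted p under 0.05. The mitochondrially encoded subunits lie between -2.54 and -1.11, the accessory subunits of the membrane arm all above 0, and rings mark NDUFA1 and NDUFA2.

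By arm, the 20 nuclear subunits of the membrane arm had a median of 0.70 and were all positive, and 16 lay higher in both Rib_CA libraries, against 30.4% of genes tested. The 16 nuclear subunits of the matrix arm had a median of 0.41, with 11 positive, 7 higher in both Rib_CA libraries and 2 lower, against 30.4% and 28.4%. No test of this difference between arms was made. Thus the membrane arm joined the lowest values, of its mitochondrial core, with the higher nuclear median, of its accessory subunits. With a correction for GC content and length the medians were 0.70 and 0.25, with 15 and 13 members positive. With 1 library left out, 17 to 20 members of the membrane arm were positive after rounding. The number was 17 without Rib_CA 1, where NDUFA11 rounded to 0, 18 without DMSO 1 and 19 without Rib_CA 2. The matrix arm median then ran from 0.22 without Rib_CA 2 to 0.41 without DMSO 1.

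Nuclear subunit messages are short. Their longest annotated transcripts had a median of 1333 bases against 3646 for all genes tested, while the median GC content was 48.5% in both. Across the 37 nuclear subunits, Spearman's rho of log2 fold change with longest transcript length was -0.39, and with GC content 0.10. This is across genes that share the same libraries and is given as a description. The median longest transcript was 1916 bases in the matrix arm and 1295 in the membrane arm, so arm and length moved together, and their parts in the result were not tested.

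Per kilobase of the principal transcript, the genomes differed far more from each other than the groups did. In DMSO the median was 7370 CPM per kilobase for the mitochondrial subunits and 27.7 for the nuclear ones. In Rib_CA these medians were 3205 and 46.5. MT-ND4L was highest in DMSO with 25470 CPM per kilobase, followed by MT-ND4 with 21160 and MT-ND2 with 16050. MT-ND6 was the lowest of the 7, with 1979 CPM per kilobase in DMSO and 915.6 in Rib_CA.

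Among nuclear subunits NDUFA11 was highest per kilobase, with 200.7 CPM in DMSO and 265.1 in Rib_CA, followed by NDUFS5 with 160.9 and 240.5. NDUFA9 was lowest in DMSO with 6.044 CPM per kilobase, over a principal transcript annotated at 8363 bases. Without division by length its DMSO mean was 50.55 CPM, above the nuclear medians of 31.55 and 30.94 CPM in DMSO 1 and 2. Its rank thus depends on the annotated length. The lowest mitochondrial subunit exceeded the highest nuclear one 9.86-fold in DMSO and 3.45-fold in Rib_CA. In all, 17 nuclear members share exonic bases with another gene of the table, 12 of them over at least 10% of their length. Reads on those bases may be split or shared, since their treatment is not given in the sources used here.

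The other genes that belong with complex I were read from the same fit. Assembly factors, which build the complex and leave it, numbered 20. edgeR called 0, with unadjusted p under 0.05 for 5, all higher, against 13.7% of genes tested for higher. DESeq2 called 2 higher, against 7.58% of its tested genes, and limma-voom 0. The median log2 fold change of the 20 assembly factors was 0.27 with 15 positive, against 51.9% of genes tested. Of them 7 lay higher in both Rib_CA libraries, near the 30.4% of all genes tested. NDUFAF8 stood at 10.9, 5.739, 21.62 and 22.54 CPM, a log2 fold change of 1.41 ± 0.38 with an edgeR adjusted p of 0.0744. FOXRED1 stood at 24.92, 20.31, 48.85 and 38.13 CPM, a log2 fold change of 0.94 ± 0.29 with an edgeR adjusted p of 0.0962.

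The other messages of the mitochondrial genome lay low as well. All 6, MT-CYB, MT-CO1, MT-CO2, MT-CO3, MT-ATP6 and MT-ATP8, were negative, with log2 fold changes of -1.86, -1.90, -1.55, -2.04, -2.28 and -2.36. All 6 lay lower in both Rib_CA libraries, against 28.4% of genes tested. edgeR called 0 of them, with unadjusted p under 0.05 for 6, against 14.7% of genes tested for lower. DESeq2 called 6 lower, against 11.2% of its tested genes, and limma-voom 0, against 4.81% of genes tested. Complex II, whose subunits are encoded in the nucleus alone, had a median of 0.25 over 4 genes, with 0 called by edgeR, DESeq2 or limma-voom and 0 with unadjusted p under 0.05 in edgeR. SDHD had a log2 fold change of 0.71 and SDHB of 0.25.

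Of 14 genes for mitochondrial transcription and message stability, edgeR called 2, both lower, against 5.11% of genes tested. DESeq2 called 4 lower, against 11.2% of its tested genes, and limma-voom 1 lower, against 4.81% of genes tested. LRPPRC, which with SLIRP stabilises mitochondrial messages, stood at 169 and 118 CPM in DMSO and 52.48 and 54.62 CPM in Rib_CA. It fell 2.68-fold, a log2 fold change of -1.42 ± 0.28 with an edgeR adjusted p of 0.0379. PNPT1, polynucleotide phosphorylase, stood at 47.38 and 36.47 CPM against 17.69 and 17.31 CPM. It fell 2.4-fold, a log2 fold change of -1.26 ± 0.29 with an edgeR adjusted p of 0.0493. Both calls were lost with total counts alone and without either DMSO library, where 1 control library was left. They were also lost with either GC correction, where edgeR called 0 genes of the whole table. The median of this list was -0.17, with 5 positive and 9 negative, against 51.9% and 48.1% of genes tested. Whether the list bears on the mitochondrial subunits was not tested.

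Of 10 regulators of nuclear respiratory genes edgeR called 0, with unadjusted p under 0.05 for 4, against 13.7% of genes tested for higher and 14.7% for lower. DESeq2 called 1 higher and 2 lower, against 7.58% and 11.2% of its tested genes, and limma-voom called 0. GABPA, which binds ETS letters, had a log2 fold change of -1.32 ± 0.35 with an edgeR adjusted p of 0.0703. ESRRA, an orphan nuclear receptor, had 1.22 ± 0.34 with an edgeR adjusted p of 0.0769. NRF1 and YY1, whose letters were searched as well, had log2 fold changes of 0.60 and -0.28, with edgeR adjusted p of 0.211 and 0.512. The median of this list was -0.31, with 2 positive and 8 negative, against 51.9% and 48.1% of genes tested. Both Rib_CA libraries lay below both DMSO libraries for 6 and above them for 2, against 28.4% and 30.4% of genes tested.

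NDUFA4, left out of the members because it is now counted with complex IV, stood at 54.82, 46.4, 92.27 and 126.7 CPM, a log2 fold change of 1.11 ± 0.28 with an edgeR adjusted p of 0.0639. Its paralogue C15orf48 rose 10.4-fold from 0.98 and 1.37 CPM to 14.55 and 9.87 CPM, a log2 fold change of 3.38 ± 0.44 with an edgeR adjusted p of 0.0285. That call was lost with either GC correction, where edgeR called 0 genes of the whole table at the threshold (unadjusted p under 0.05 for 3655 and 3404 genes).

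**Figure D5:**
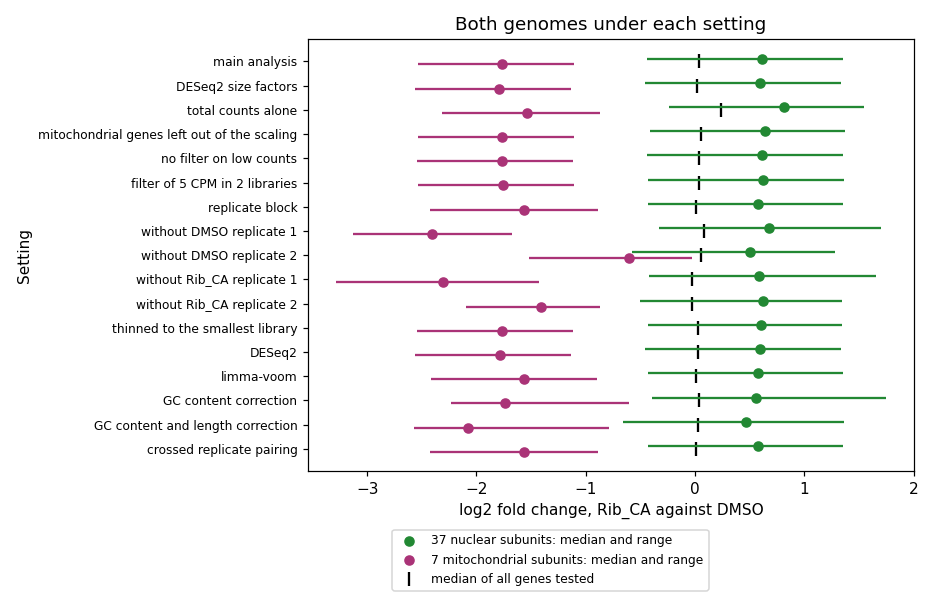
Median (points) and range (lines) of log2 fold change for the 37 nuclear and the 7 mitochondrial subunits under each processing setting, with the median of all genes tested as a tick. The medians of the 2 genomes lie on opposite sides of 0 in every setting shown, and their ranges overlap only without DMSO replicate 2, where the mitochondrial median is -0.61.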

How the data were processed

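The deposited table holds raw counts per gene that the authors did not normalise, for 2 DMSO and 2 Rib_CA libraries. GRCm38 and mm10, both mouse builds, stand in the submitters' processing notes although all IDs are human, so the build is not settled. No aligner, counter or strand setting is given in the sources used here. Most low counts are even (67.7 to 70.7% of values from 1 to 10), so both mates of a pair may be counted and intervals understate the counting error. Groups came from the titles. Nothing in the labels says that replicates were separate cultures. A p-value here therefore reflects the spread among the 4 libraries alone, and that spread may be technical. The members and lists were chosen with earlier results of these data known.

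Symbols were found for 20148 of 20263 IDs. Gene limits and lengths came from GENCODE 29 (GRCh38), in which 20224 IDs were found. In R 4.3.3, edgeR 4.0.16 kept genes by filterByExpr (minimum count 10, total 15), scaled by TMM and applied the robust quasi-likelihood test with 2 residual degrees of freedom. p was adjusted by Benjamini-Hochberg over 13667 genes. Standard errors are the absolute log2 fold change over the root of F, CPM are TMM-scaled except those of the marker genes, and library values are given in the order DMSO 1, DMSO 2, Rib_CA 1, Rib_CA 2. The script was tested on simulated counts. Alternatives were DESeq2 1.42.0, limma-voom (limma 3.58.1, called 224 higher and 658 lower), other scalings and filters, thinning to 34774542 counts, a replicate block, each library left out, and offsets smoothed over GC content or GC content and length (mgcv 1.9.3).

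Values per library are given for the mitochondrial subunits, nuclear subunits that passed, and per role the highest, the lowest and the smallest p. Of other lists, members that passed and the 2 with the smallest p are named. NDUFS3, NDUFA8, NDUFA12, NDUFB4 and NDUFC1 were added after their values were seen, as were NRF1 and YY1. FASTKD4 was not matched by symbol. 1 subunit and 1 marker gene are not reported here by name, and the subunit is kept in the counts and medians.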

Additional observations from a re-analysis of the deposited data

How the results depend on the processing

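Log2 fold changes of all 7 mitochondrial subunits were negative in every setting run. Of the nuclear subunits, 2 were called higher by edgeR in the analysis reported, against 2.01% of genes tested. The number was 1 with total counts alone (1.9%), 1 with the replicate block (1.9%), 1 by limma-voom (1.64%) and 9 by DESeq2 (7.58%). It was 0 with a GC correction and 0 with a GC and length correction. With either GC correction edgeR called 0 genes of the whole table, with unadjusted p under 0.05 for 3655 and 3404 genes. Leaving out 1 library gave 0 to 11 (0 without either DMSO library, 11 without Rib_CA 1, 7 without Rib_CA 2). Mitochondrial subunits called lower numbered 0, against 1 with no filter on low counts (5.42% of genes tested) and 6 by DESeq2 (11.2%). Assembly factors called higher numbered 0, against 2 by DESeq2 and 0 to 4 with 1 library left out (4 without Rib_CA 1, 2 without Rib_CA 2). The nuclear median was 0.81 with total counts alone, where the median of all genes was 0.235 rather than 0.03, and 0.46 with GC and length; with 1 library left out it lay between 0.50 and 0.68. With 1 library left out the mitochondrial median lay between -2.41 and -0.61, and the nuclear minus the mitochondrial median between 1.11 and 3.08, with the values nearest 0 without DMSO 2.

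Directions reversed for 12 nuclear subunits and SDHB. With total counts alone NDUFS1, NDUFA9 and NDUFV3 were at 0.19, 0.05 and 0.11. With a GC correction NDUFS1, NDUFA5 and NDUFA9 were at 0.43, 0.24 and 0.23, and NDUFS6, NDUFA11 and NDUFB10 at -0.22, -0.12 and -0.40. With GC and length NDUFS1, NDUFA5 and NDUFA9 were at 0.90, 0.26 and 0.51, and NDUFS6, NDUFA11, NDUFA13, NDUFA3, NDUFB10, NDUFB11 and SDHB at -0.51, -0.179, -0.13, -0.11, -0.66, -0.046 and -0.11. NDUFA10 was at -0.011 with DESeq2 size factors and -0.010 in DESeq2. With 1 library left out the ranges were -0.32 to 0.18 for NDUFS1, -0.29 to 0.013 for NDUFA9, -0.14 to 0.19 for NDUFS6, -0.33 to 0.082 for NDUFV3, -0.093 to 0.062 for NDUFA10, -0.41 to 0.35 for NDUFB10 and -0.22 to 1.14 for NDUFB3. The causes were not tested.

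Over the whole table edgeR called 275 genes higher and 699 lower, against 260 and 328 with total counts alone, 991 and 1464 by DESeq2, and 36 and 137, 53 and 356, 1234 and 1634, and 1145 and 1616 without DMSO 1, DMSO 2, Rib_CA 1 and Rib_CA 2. The replicate block gave 260 and 687. Replicate numbers are shared by number alone, and deviations of same-numbered libraries had a correlation of -0.263. Crossing the numbers, chosen after seeing the data, gave 724 and 1267, with 8 nuclear subunits and 1 assembly factor higher and 5 mitochondrial subunits lower. Per kilobase, the mitochondrial share of complex I was 96.5, 98.9, 91.9 and 86.3% in DMSO 1, DMSO 2, Rib_CA 1 and Rib_CA 2.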
